A study of Mus musculus with 8 samples.

Results

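The 9 genes described here encode the renin-angiotensin system as the kidney expresses it: the substrate (Agt), renin and its receptor (Ren1, Atp6ap2), the converting enzyme (Ace), peptidases that cut angiotensin further (Enpep, Mme) and receptors (Agtr1a, Agtr1b, Mas1). They were taken by gene symbol from a table of 35275 genes, and all 9 had a row of their own. Poly-A RNA of the whole left kidney was sequenced from 8 male C57BL/6J mice. The KO group held 4 Ctrp1-/- mice, homozygous for the loss of 679 bp of C1qtnf1: all coding bases in exon 4, plus 162 bp of the UTR that follows. The WT group held 4 wild-type littermates. Both groups were 40 weeks old and had eaten a high-fat diet, with 60% of its calories from fat, since the age of 6 weeks, so no mice on another diet entered the comparison. The embryonic stem cells were of strain 129S5/Sv, and over 6 generations of backcrossing to C57BL/6J followed. The allele is a germ line deletion, not one limited to the kidney. C1qtnf1 encodes CTRP1, a secreted protein.

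The renin-angiotensin system controls blood pressure and salt balance. Renin, an aspartyl protease released by juxtaglomerular cells of the afferent arteriole, cuts angiotensin I from the end of angiotensinogen. Angiotensin-converting enzyme then removes the last pair of residues to give angiotensin II, which acts through the AT1 receptor to constrict vessels and retain sodium. Aminopeptidase A (Enpep) and neprilysin (Mme), both on the brush border of proximal tubule cells, cut angiotensin peptides further. Neprilysin turns angiotensin I into angiotensin-(1-7), the ligand of the Mas receptor, which opposes AT1 in many settings.

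The coding bases for angiotensin I show what these enzymes work on. They lie in exon 2 of Agt, at chr8:124564450-124564479 of mm10 on the minus strand, and encode residues 30 to 39. Capitals mark angiotensin II, and the lower-case codons are those of the pair of residues that Ace removes.
Agt: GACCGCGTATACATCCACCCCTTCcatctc

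Ace, Enpep and Mme are zinc metallopeptidases of the kind that hold zinc with the motif HExxH (histidine, glutamate, a pair of any residues, histidine). The codons of each match are shown because the number of matches tells Ace from both peptidases; capitals mark the codons of the histidines and the glutamate.
Ace, codons 395 to 399, exon 8, chr11:105972910-105972924, plus strand: CACGAGatgggcCAC
Ace, codons 993 to 997, exon 20, chr11:105985094-105985108, plus strand: CACGAAatgggcCAC
Enpep, codons 385 to 389, exon 5, chr3:129309772-129309786, minus strand: CACGAActtgtaCAC
Mme, codons 584 to 588, exon 18, chr3:63362021-63362035, plus strand: CATGAAatcacaCAT
Ace had 2 matches, as the somatic enzyme has a catalytic site in each of its paired domains, and Enpep and Mme had 1 each. Of 21584 mouse coding genes searched, 3.3% held at least 1 match and 0.65% at least 2, so the match alone does not name a peptidase.

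Mice carry a pair of AT1 receptor genes. The coding sequences of Agtr1a and Agtr1b were identical at 90.8% of 1077 bases and 93.9% of 359 residues. Their first 30 coding bases are shown because reads of both genes have to be told apart by such differences, which are in capitals.
Agtr1a, chr13:30380954-30380983, plus strand: atgGCccttaactcttctaCtgaagatggC
Agtr1b, chr3:20316411-20316440, minus strand: atgATccttaactcttctaTtgaagatggA
The longest run of identical coding bases was 66. Reads that fall inside such a run could be counted for either gene.

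The 8 libraries held 17884140 to 20344859 reads, worked out from the steps between the deposited values. C1qtnf1, the targeted gene, was at 5.27 to 5.55 FPKM (fragments scaled to gene length and library depth) in the WT mice, and the KO mice had 0.322 to 0.883 FPKM, so each library matched its label. KO replicate 2 stood apart from the other 7 libraries. Deviations from the mean of the 8 mice were taken in log2(FPKM + 1), with FPKM first divided by a scale for its library. Among the genes tested, the median deviation of KO replicate 2 was 0.27 in the 4039 shortest (up to 2222 bases). In the 4040 longest (from 3862 bases) it was -0.24. The other libraries lay between -0.08 and 0.07 in both sets. Its summed immediate early and heat shock genes were at 263 FPKM, against 103 to 123 in the other KO mice and 58.9 to 71 in WT. Members' differences are therefore also given without this mouse, as are the means of named pathway genes whose direction turns without it. In the immediate early and heat shock sum every KO mouse was above every WT mouse, also without KO replicate 2. The cause was not tested. Markers of proximal tubule were high in every library (4534 to 5758 FPKM summed over 10 genes). Adrenal cortex markers summed to 0.644 to 1.22 FPKM over 6 genes, with Cyp11b2, the aldosterone synthase gene, at 0 in all 8 mice.

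The comparison of KO with WT asks whether kidneys of mice without CTRP1 on a high-fat diet express the renin-angiotensin genes at other levels. At an adjusted p under 0.05, 0 of the 7 members with a mean of at least 1 FPKM were called by limma, where 0.0413% of all 12118 genes tested were called (0.0165% higher and 0.0248% lower in KO). Agtr1b and Mas1 were below that level and were not in this fit. Fitted with no minimum, where 0.0218% of 22945 genes were called, they had adjusted p of 0.99 and 0.92. At an unadjusted p under 0.05, 3 of the 7 (Mme, Enpep and Agtr1a) were lower in KO and 0 higher, where 2.14% of all genes tested were lower and 4.0% higher, 6.14% in all. The median log2 fold change of the 7 was 0.05, and that of all genes tested -9.6e-05. Log2 differences and deviations below are in log2(FPKM + 1) after division by the library scales, while FPKM values are as deposited unless called scaled. Differences are KO minus WT, with their SE and 95% interval. In whole-kidney RNA, fewer cells of a type and less RNA per cell cannot be told apart. Which litter and cage each mouse came from is not given. The limma p-values set each difference against the spread between mice of the same genotype, whatever its source. Simulated data of this size had the same dispersion set for every gene, no library like KO replicate 2, and more changed genes than were called here. There the same test found 55.7% of 1.5-fold and 98.2% of 2-fold changes. These shares may be lower for variable genes such as Ren1 and Ace in these 8 mice, so changes of either size could be missed.

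**Figure D1:**
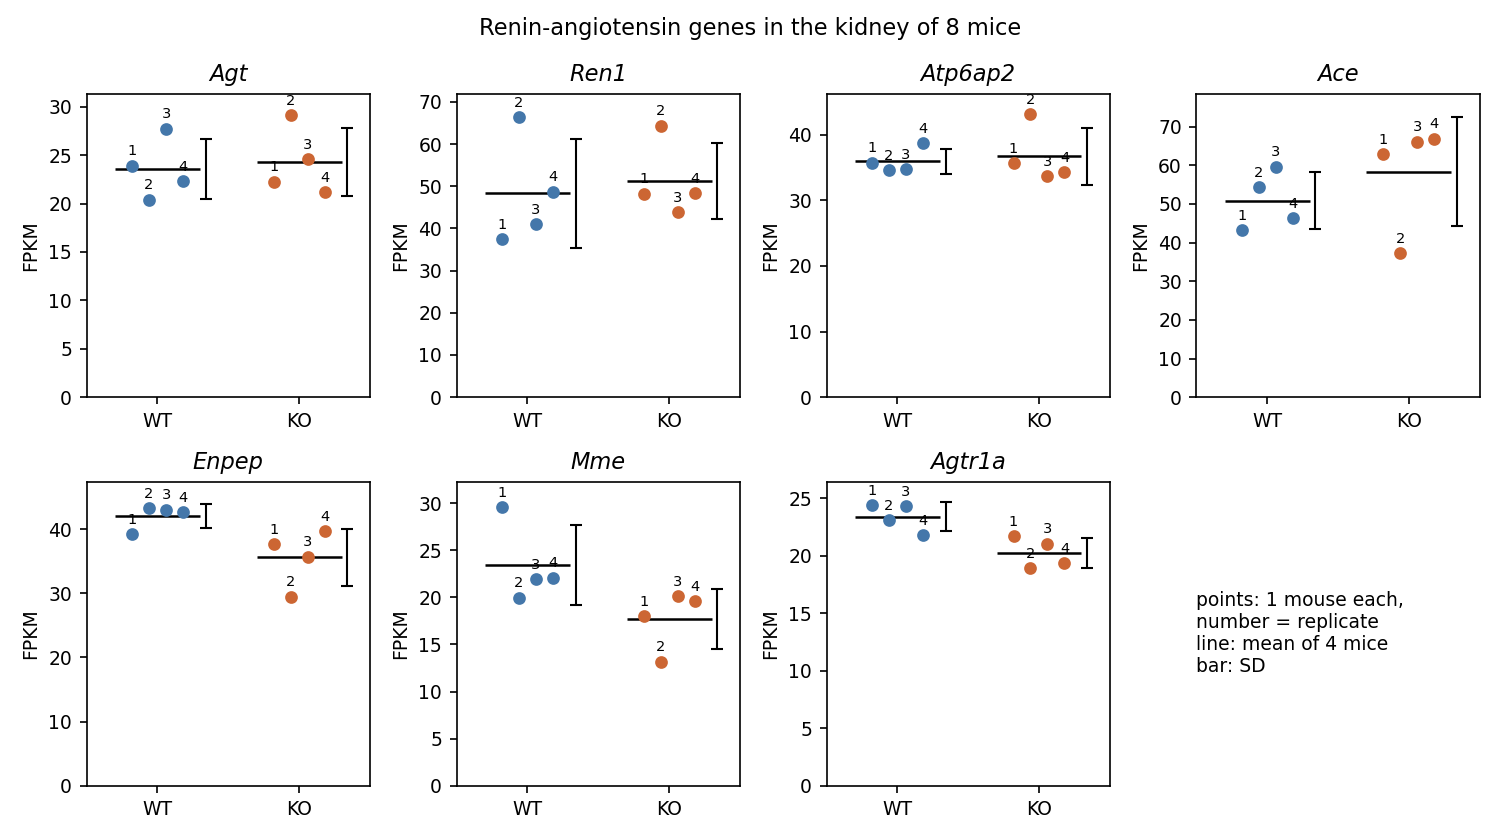
FPKM (y axis, from 0) of the 7 members above the filter in each of 4 WT and 4 KO mice; points are mice with their replicate number, lines are means and bars are SD. Agtr1a is the member whose KO and WT values do not overlap, by a narrow gap (21.7 against 21.8 FPKM). KO replicate 2 is lowest of its group in Ace, Enpep, Mme and Agtr1a and highest in Agt, Ren1 and Atp6ap2. After library scaling Agtr1a was lowest in KO replicate 4, at 19.1 against 20.4 scaled FPKM in KO replicate 2.

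The substrate gene differed little between genotypes. Agt, which encodes angiotensinogen, lies on chromosome 8 from 124556534 to 124569706 (mm10). It was at 23.9, 20.4, 27.7 and 22.3 FPKM in WT replicates 1 to 4 and at 22.3, 29.2, 24.6 and 21.2 FPKM in KO replicates 1 to 4. The groups overlapped over nearly their whole range, with the highest value in KO replicate 2. Means were 23.6 ± 3.11 in WT and 24.3 ± 3.53 FPKM in KO (SD, n = 4 each). Their log2 difference was 0.07 ± 0.14 (SE, limma adjusted p = 0.93), with an interval from -0.24 to 0.38. Without KO replicate 2 it turned to -0.05.

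Renin varied more between mice of one genotype than between genotypes. Ren1, on chromosome 1 from 133350510 to 133360325, was at 37.4, 66.4, 41.0 and 48.7 in WT and at 48.2, 64.3, 43.9 and 48.3 FPKM in KO. A mouse of each group, WT replicate 2 and KO replicate 2, stood above the others, and the KO range lay inside the WT range. Means were 48.4 ± 12.9 and 51.2 ± 9.0 FPKM (SD, n = 4 each). The coefficient of variation in WT was 26.7%, against 5.28% for Agtr1a in the same mice. On the log2 scale KO differed from WT by 0.13 ± 0.19 (SE, limma adjusted p = 0.90). The interval ran from -0.30 to 0.56, and changes within these limits were not resolved. Without KO replicate 2 the difference was -0.01.

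Atp6ap2 encodes the prorenin receptor, which also serves as an accessory subunit of the vacuolar proton pump and is made by most cells. On chromosome X from 12587801 to 12617049, it was at 35.7, 34.6, 34.8 and 38.7 in WT and 35.6, 43.1, 33.7 and 34.3 FPKM in KO. Leaving KO replicate 2 aside, the other 7 mice lay between 33.7 and 38.7 FPKM. The log2 difference was 0.05 ± 0.11 (SE, limma adjusted p = 0.93, interval -0.19 to 0.30), and -0.06 without that mouse.

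Ace had the largest mean among the members and 1 KO library far from the other 3. It lies on chromosome 11 from 105967945 to 105989964, 12.4 Mb from C1qtnf1 on the same chromosome. It was at 43.3, 54.3, 59.6 and 46.3 in WT and at 62.9, 37.3, 66.1 and 66.8 FPKM in KO. Of the KO mice, 3 lay above every WT mouse, and KO replicate 2 lay below every WT mouse. Means were 50.9 ± 7.48 and 58.3 ± 14.1 FPKM (SD, n = 4 each), and the log2 difference was 0.20 ± 0.17 (SE, limma adjusted p = 0.87, interval -0.19 to 0.58).

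Without KO replicate 2, Ace was at 65.3 ± 2.09 FPKM in the remaining KO mice (SD, n = 3). This gave a log2 difference of 0.36 ± 0.11 (SE, interval 0.12 to 0.61), with an unadjusted p of 0.0083 and a limma adjusted p of 0.28. In that comparison 0.165% of 12120 genes were called and 5.59% had KO values all above WT values (11.1% were apart in either direction). Ace was again not called. Of 26 genes tested within 1 Mb of Ace, 0 were called with all mice. As 0.0413% of all genes were called, 26 genes are too few for that count to show anything. On chromosome 11, 3 of 1042 genes tested were called, C1qtnf1 among them, and they lay at most 1.67 Mb from it. How far DNA of the stem cell strain reaches along the chromosome was not tested. An antisense gene, Gm11651, shares 295 exon bases with Ace, and whether reads were counted by strand is not given in the sources used here.

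Both peptidase genes had lower means in KO, and neither passed the threshold. Enpep encodes aminopeptidase A, which removes the first residue of angiotensin II to give angiotensin III. On chromosome 3 from 129269175 to 129332720, it was at 39.2, 43.3, 43.0 and 42.7 in WT and 37.7, 29.4, 35.7 and 39.6 FPKM in KO. The groups overlapped only through WT replicate 1 and KO replicate 4. Means were 42.0 ± 1.92 and 35.6 ± 4.42 FPKM (SD, n = 4 each), a KO to WT ratio of 0.847. The log2 difference was -0.21 ± 0.09 (SE, limma adjusted p = 0.80, interval -0.41 to -0.01), and -0.15 without KO replicate 2 (adjusted p = 0.43).

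Mme encodes neprilysin, which degrades many peptides besides angiotensin I, natriuretic peptides among them. On chromosome 3 from 63241537 to 63386030, it was at 29.6, 20.0, 21.9 and 22.1 in WT and 18.01, 13.2, 20.1 and 19.6 FPKM in KO. The highest value was in WT replicate 1 and the lowest in KO replicate 2, and the groups overlapped only through WT replicate 2 and KO replicate 3. Means were 23.4 ± 4.25 and 17.7 ± 3.17 FPKM (SD, n = 4 each), a KO to WT ratio of 0.758, the lowest of the 7. On the log2 scale the difference was -0.35 ± 0.13 (SE, limma adjusted p = 0.75, interval -0.65 to -0.06). It was -0.25 without KO replicate 2 (adjusted p = 0.40).

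Summed markers of proximal tubule, the segment that carries both enzymes, were at 4939 to 5758 FPKM in WT, 4534 FPKM in KO replicate 2 and 5407 to 5435 FPKM in the other KO mice. Most of each sum came from 1 gene, with a WT mean of 3505 FPKM. Of the 10 markers, 8 had a negative log2 difference, 0 were called, and the median was -0.08. The only marker at an unadjusted limma p under 0.05 was 1 of the 2 positive ones, at a log2 difference of 1.64. Their part in the values of Enpep and Mme was not tested.

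The AT1 receptor of the kidney was almost all Agtr1a. This gene, on chromosome 13 from 30336441 to 30382867, was at 24.4, 23.1, 24.3 and 21.8 in WT and 21.7, 18.9, 21.05 and 19.3 FPKM in KO. Each KO mouse lay below each WT mouse, though the highest KO and lowest WT values differed by less than the SD of either group. KO values lay wholly below WT values in 3.01% of all genes tested, and the groups lay apart in either direction in 5.3%. Means were 23.4 ± 1.24 and 20.2 ± 1.34 FPKM (SD, n = 4 each), a KO to WT ratio of 0.865. The log2 difference was -0.17 ± 0.08 (SE, limma adjusted p = 0.81), with an interval from -0.34 to -7.1e-05. It was -0.17 as well without KO replicate 2 (adjusted p = 0.37), a comparison in which 5.54% of all genes had KO values wholly below WT values. With each mouse left out in turn it lay between -0.20 and -0.14.

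Agtr1b, on chromosome 3 from 20314473 to 20367177, had 1 read in WT replicate 4, 1 in KO replicate 2 and 0 in the other 6 libraries. Over the 8 libraries Agtr1a had 7345 reads, 3590 times as many per base of gene length, with a 95% counting interval (Clopper-Pearson) from 992 to 29600. At these counts no difference of Agtr1b between genotypes was detectable. The coding sequences above share runs of up to 66 bases. If reads that fit both genes were counted, even these 2 could belong to Agtr1a.

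Mas1 was expressed close to the lower limit of this depth. On chromosome 17 from 12841079 to 12868143, it had 9, 14, 27 and 5 reads in WT and 16, 14, 14 and 15 reads in KO, or 0.102 to 0.585 and 0.313 to 0.373 FPKM. WT values spread over 5.72-fold and enclosed all KO values, which spread over 1.19-fold. Means were 0.297 ± 0.211 and 0.330 ± 0.0286 FPKM (SD, n = 4 each; exact permutation test, two-sided, p = 0.80, where 0.029 is the smallest possible). Pooled, KO had 59 reads and WT 55, a ratio of 1.13 per library read with a 95% counting interval from 0.766 to 1.66. The difference in spread between the groups was not tested.

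**Figure D2:**
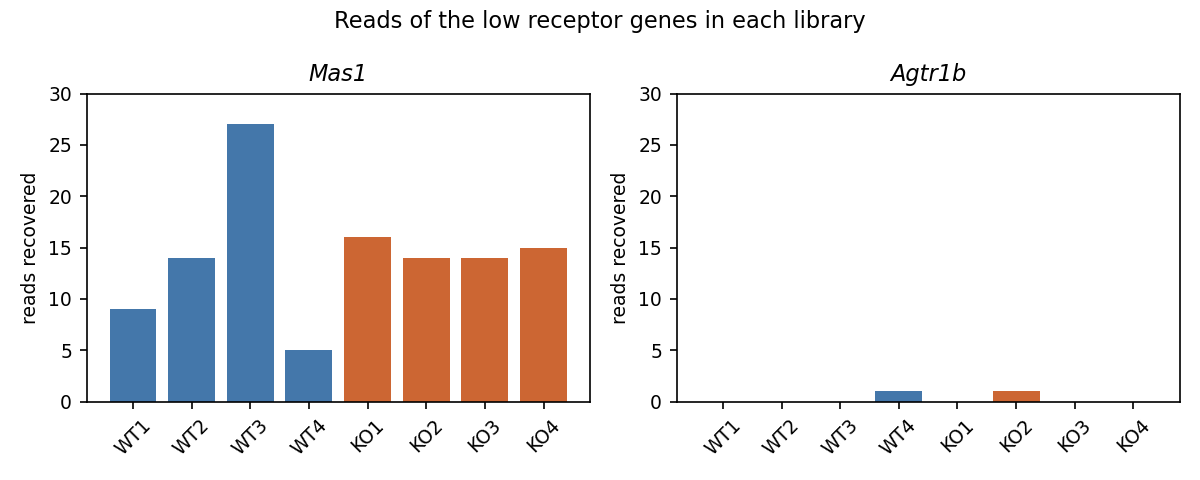
Reads of Mas1 and Agtr1b (y axis) recovered in each library (x axis, WT and KO replicates 1 to 4). Mas1 ranged from 5 to 27 reads in WT and from 14 to 16 in KO, while Agtr1b had 1 read in WT replicate 4, 1 in KO replicate 2 and 0 elsewhere.

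FPKM are per gene length, so levels were ranked between genes at the lengths behind the deposited values. In WT the order of mean levels was Ace, Ren1, Enpep, Atp6ap2, Agt, Mme, Agtr1a, Mas1 and Agtr1b. Neighbours at the top did not separate: Ace was above Ren1 in 2 of 4 WT mice, and Ren1 above Enpep in 2 of 4. Enpep was above Atp6ap2 in all 4 WT mice with no overlap, and Atp6ap2 above Agt in all 4. Agt, Mme and Agtr1a had WT means of 23.6, 23.4 and 23.4 FPKM and could not be ordered. The length fitted for Mme was 4240 bases, against 11542 in the GENCODE M21 annotation, so its place depends on the length used. From Agtr1a to Mas1 the mean level dropped by a factor of 78.8 in WT. By KO means, Atp6ap2 came before Enpep and Agtr1a before Mme, each pair with overlapping values, and the other places were the same. Enpep was above Atp6ap2 in 3 of 4 KO mice, and without KO replicate 2 its KO mean of 37.7 FPKM was above the 34.5 FPKM of Atp6ap2, as in WT.

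**Figure D3:**
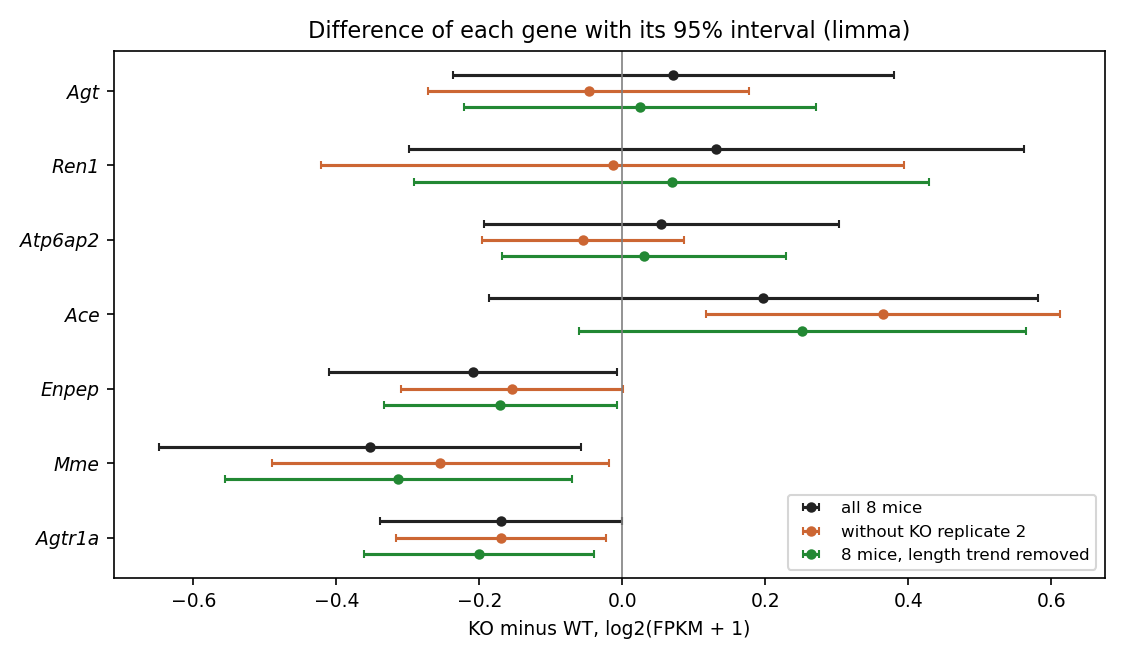
KO minus WT difference (x axis) of 7 members with 95% intervals from limma, in log2(FPKM + 1) after library scaling. Shown are all 8 mice, the fit without KO replicate 2, and 8 mice after a length trend was removed from each library. Estimates of Enpep, Mme and Agtr1a lie below 0 and that of Ace above 0 under all 3. Those of Agt, Ren1 and Atp6ap2 turn from above to below 0 without KO replicate 2. The interval of Ace includes 0 with all 8 mice and with the trend removed. That of Enpep includes 0 without KO replicate 2 (-0.31 to 0.0014).

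In KO replicate 2 the deviations of most members were ordered by gene length. Ren1, Agt and Atp6ap2 had fitted lengths of 1592, 1891 and 2324 bases. In this library they deviated by 0.50, 0.39 and 0.35 from their mean over the 8 mice (log2, after library scaling). Enpep, Mme and Ace, with 4181, 4240 and 4906 bases, deviated by -0.27, -0.47 and -0.40. Agtr1a, at 2199 bases, deviated by -0.09. The same library had the length pattern over all genes given above. After removal of that trend from every library, an alternative added after the data were seen, the log2 differences were 0.25 for Ace (interval -0.06 to 0.56) and -0.17 for Enpep. They were -0.31 for Mme and -0.20 for Agtr1a (interval -0.36 to -0.04), with 0 of 7 members called (0.0578% of all genes) and a lowest limma adjusted p of 0.49, for Mme. Agt, Ren1 and Atp6ap2 were at 0.02, 0.07 and 0.03. After the removal KO replicate 2 still deviated by 0.27 in Ren1, 0.22 in Agt and 0.26 in Atp6ap2. Its deviations were -0.14 in Enpep, -0.33 in Mme and -0.20 in Ace, and that of Agtr1a went from -0.09 to -0.20.

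**Figure D4:**
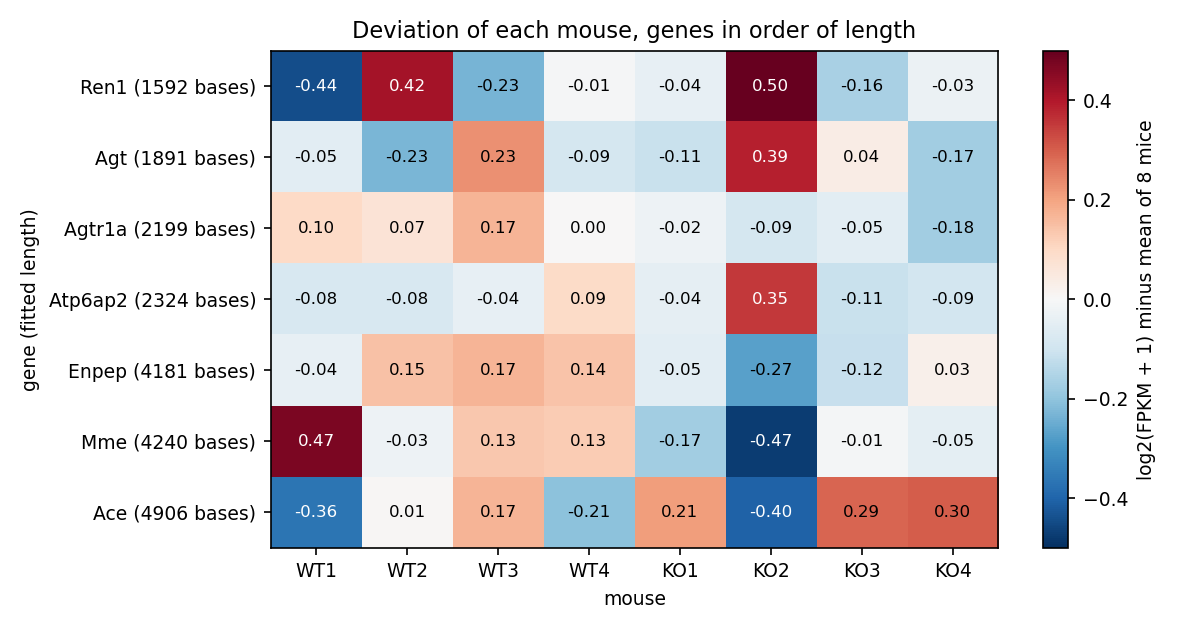
Deviation of each mouse (x axis) from the mean of the 8 mice, for 7 members in order of fitted length (y axis). Values are in log2(FPKM + 1) after library scaling. KO replicate 2 ranges from 0.50 in Ren1, the shortest, to -0.47 in Mme and -0.40 in Ace, the longest, and the other 3 KO mice have positive values in Ace (0.21 to 0.30).

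Other genes that handle angiotensin were not called either. Of 19 listed, 14 were tested, 7 with a positive and 7 with a negative log2 difference, 0 called and a median of 0.00099. Arrb2, an arrestin that binds activated receptors such as AT1, was at 7.44 ± 0.774 in WT and 9.02 ± 0.83 FPKM in KO (limma adjusted p = 0.71). Thop1, an oligopeptidase, was at 8.58 ± 0.317 and 9.56 ± 0.81 FPKM. Lnpep, a membrane aminopeptidase that binds angiotensin IV, was at 1.12 FPKM in KO replicate 2 and at 4.61 to 5.85 FPKM in the other 7 mice. Its mean was 5.05 FPKM in WT and 4.07 FPKM in KO, or 5.06 FPKM without that mouse. Of the 5 genes below the filter, Agtr2, the AT2 receptor gene, had 7 reads over the 8 libraries, Cma1, the mast cell chymase gene, had 3, Ctsg and Cpa3 had 1 each, and Mrgprd had 0.

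The kallikrein-kinin genes, whose peptide bradykinin is broken down by Ace, had 4 of 7 tested, 2 positive and 2 negative, 0 called and a median of 0.03. Klk1, tissue kallikrein, was at 910 ± 116 in WT and 946 ± 174 FPKM in KO, and the KO mean without KO replicate 2 was 861.5 FPKM, below that of WT. Kng2, a kininogen gene, was at 82.7 ± 6.81 and 70.8 ± 6.48 FPKM (limma adjusted p = 0.86). Cpn1, a carboxypeptidase that trims kinins, was at 67.2 ± 4.0 and 64.7 ± 6.24 FPKM. Cpe, a carboxypeptidase of peptide hormones, was at 13.99 ± 2.94 and 23.4 ± 8.87 FPKM (limma adjusted p = 0.66).

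In the aldosterone pathway 6 of 9 genes were tested, 4 positive and 2 negative, with 0 called and a median of 0.02. Hsd11b2, which shields the mineralocorticoid receptor from glucocorticoids, was at 87.3 ± 14.2 in WT and 96.4 ± 4.06 FPKM in KO (limma adjusted p = 0.87). The receptor gene Nr3c2 was at 3.19 ± 0.38 and 2.79 ± 0.484 FPKM. Of the subunits of the epithelial sodium channel, Scnn1a was at 33.7 ± 2.39 and 30.6 ± 7.38 FPKM and Scnn1b at 21.2 ± 2.81 and 21.8 ± 1.13 FPKM. Without KO replicate 2 the KO mean of Scnn1a was 34.3 FPKM, above that of WT.

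Regulators of renin cells and the macula densa had 11 of 18 tested, 8 positive and 3 negative, with 0 called and a median of 0.06. Adora1, the adenosine receptor that restrains renin release, was at 0.954 ± 0.145 in WT and 1.42 ± 0.338 FPKM in KO (limma adjusted p = 0.72). Nr1h3, the gene of the liver X receptor alpha, was at 30.5 ± 0.866 and 33.0 ± 1.11 FPKM (limma adjusted p = 0.85), with KO values all above WT values, as in 2.29% of all genes tested. Adrb1, the beta-adrenergic receptor that stimulates renin release, was at 2.24 ± 0.466 and 2.57 ± 0.243 FPKM, and Gnas, its G protein subunit, at 4.64 ± 1.41 and 5.42 ± 0.766 FPKM.

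Downstream of the receptors, 11 of 14 listed genes of signalling and effectors were tested, 6 positive and 5 negative, with 0 called and a median of 0.03. Nox4, the main NADPH oxidase of tubule cells, was at 78.6 ± 9.74 in WT and 67.1 ± 7.15 FPKM in KO, and its partner Cyba at 714 ± 28.5 and 805 ± 112 FPKM (limma adjusted p = 0.87 for each). Gnaq, the G protein that couples AT1 to calcium, was at 12.6 ± 2.39 and 13.8 ± 1.08 FPKM. Plcb1, a phospholipase C, was at 5.20 ± 0.572 and 4.46 ± 0.912 FPKM.

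Markers of cells that carry or border these genes were summed per mouse. Endothelial markers, of cells that bear Ace in many vessels, were at 90.3 to 95.1 FPKM in WT, 48.8 FPKM in KO replicate 2 and 91.3 to 98.0 FPKM in the other KO mice (5 of 6 lower in KO, 0 called). Smooth muscle and pericyte markers, the lineage of renin cells, were at 44.7 to 56.0 in WT and 51.5 to 61.7 FPKM in KO, with 5 of 6 tested, 4 positive and 1 negative, and 0 called; at an unadjusted p under 0.05, as for 6.14% of all genes, were 3 of the positive and the negative one. Podocyte markers were at 113 to 118 FPKM in WT, 84.1 FPKM in KO replicate 2 and 115 to 126 FPKM in the other KO mice. Thick ascending limb markers were at 1219 to 1468 in WT and 918 to 1256 FPKM in KO. Collecting duct markers were at 239 to 344 and 309 to 457 FPKM. Most of each of these sums came from 1 gene, with WT means of 1182 and 203 FPKM. Of the collecting duct markers 3 of 4 were tested, 2 positive and 1 negative, with 0 called. The 2 positive ones were at an unadjusted limma p under 0.05, as for 6.14% of all genes. Urothelial markers lay apart, at 3.98 to 10.2 in WT and 14.8 to 34.1 FPKM in KO, with 6 of 7 tested, all 6 positive and at an unadjusted p under 0.05, and 0 called. Fat markers were at 0.0717 to 3.34 and 0.668 to 3.06 FPKM, and immune markers at 6.71 to 10.1 and 6.49 to 11.7 FPKM. The part of these cells in the members' values was not tested, nor was that of the length pattern of KO replicate 2 in its marker sums.

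For each of the 7 members, the pair of genes most alike over the 8 mice was taken from 11216 tested genes. The measure was the highest Pearson r of log2(FPKM + 1) after library scaling. Being the highest of so many, these r are a description and carry no p. Enpep was most like Hadha (r = 0.98, Spearman's rho = 0.98), a fatty acid oxidation enzyme of mitochondria, and Slc38a4 (r = 0.98). Without the 2 mice farthest from the median of Enpep, WT replicate 3 and KO replicate 2, these were 0.99 and 0.94. Agtr1a was most like Ackr3 (r = 0.98, and 0.97 without 2 mice), a chemokine receptor, and Tyw3 (r = 0.96). Ace was most like Mmp17 and Smpd1 (r = 0.98 and 0.97, and 0.94 and 0.95 without 2 mice), and Mme like Dffa and Lurap1 (r = 0.97 and 0.96).

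Ren1 was most like Pde6d and Med9 (r = 0.96 and 0.93) and Atp6ap2 like Ankrd12 and Psmc1 (r = 0.99 each). Agt was most like Mep1b, a brush border metalloprotease, and Cyp51, an enzyme of cholesterol synthesis (r = 0.98 and 0.94). Without KO replicate 2 and WT replicate 3 the values for Agt dropped to 0.81 and 0.63, and that of Psmc1 for Atp6ap2 was 0.67 without KO replicate 2 and WT replicate 4.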

How the data were processed

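Per the labels, each library came from the left kidney of a different mouse; the 4 KO and 4 WT mice were grouped by genotype, and replicate numbers only name them. The authors deposited 1 table with no unit in its header, whose values were taken as FPKM because low values of a gene were multiples of 1 read. The submitters' processing notes name build mm10 and the tools CASAVA, STAR 2.5, HTSeq 0.6.1 and DESeq2, without roles or a strand setting. Positions, lengths and sequences came from GENCODE M21 of the same build, matched to 97.8% of genes.

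Reads were recovered from the FPKM steps with gene lengths fitted. Of 22945 genes above 0, 22941 gave whole reads in all libraries within 0.01 reads (1e-07 of the count in high genes), and 6025 did so at their M21 length. Intervals cover counting error only, as PCR copies were not marked.

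The main test was limma 3.58.1 (R 4.3.3, statmod 1.5.0, trend and robust moderation) on log2(FPKM/scale + 1). It took the 12118 genes whose FPKM averaged at least 1, with Benjamini-Hochberg adjustment at 0.05. Fold changes understate those of low genes. Scales were trimmed means of log ratios (0.3 of ratios and 0.05 of levels trimmed), 0.927 to 1.05. The procedure was tested on simulated data, 10 sets of 12116 genes, where 6.3% of called genes were false. Permutation tests were exact.

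The members, lists and tests were chosen with earlier results of these data known. Named besides the members were C1qtnf1, the 4 genes of lowest p in each pathway list, and the 2 genes most like each member. One gene that this rule names is not reported here. Cma1, Ctsg, Cpa3, Mrgprd, Agtr2, Cyp11b2 and Gm11651 were named after their values or positions were seen. Alternatives were other scalings, minima, pseudocounts, weights and moderation, limma-voom on recovered reads, a threshold of 0.1, leaving out each mouse, and, added after the data were seen, removal of a trend with gene length and pathway gene means without KO replicate 2.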

Additional observations from a re-analysis of the deposited data

Results flagged for a closer look

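In 58 groups of 4 values, each a member or a named pathway gene in one genotype, 9 had a sample far from the other 3 by Dixon's criterion. Chance gives about 1 in 20 for independent values with a normal spread. These groups share libraries and some hold few reads, so the count cannot be set against that rate. Among members, Ace was at 37.3 FPKM in KO replicate 2 against 62.9 to 66.8 in the other KO mice. Enpep was at 39.2 FPKM in WT replicate 1 against 42.7 to 43.3 in the other WT mice. Mas1 was at 0.373 FPKM in KO replicate 1 against 0.313 to 0.317, a difference of 1 to 2 reads. Agtr1b was at 0.0229 FPKM in WT replicate 4 and 0.0253 FPKM in KO replicate 2, each from 1 read, and at 0 in the other mice.

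Among pathway genes, Lnpep was at 1.12 FPKM in KO replicate 2 against 4.84 to 5.29 in the other KO mice, and Scnn1a at 19.5 FPKM in that mouse against 33.9 to 34.8. Cpe was at 18.4 FPKM in WT replicate 2 against 12.3 to 12.7, and Scnn1b at 17.0 FPKM in WT replicate 1 against 22.3 to 22.9.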

How the results depend on the processing

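The count of 0 called members was the same under all 20 alternatives. Over 19 refits each, the log2 difference stayed positive for Ace (0.11 to 0.36) and negative for Enpep (-0.26 to -0.15), Mme (-0.42 to -0.19) and Agtr1a (-0.20 to -0.14). The lowest adjusted p of any member was 0.168, for Enpep with array weights. With array weights Agt, Ren1 and Atp6ap2 turned to -0.0014, -0.099 and -0.063. With each mouse left out in turn, Agt ranged from -0.047 to 0.16, Ren1 from -0.013 to 0.29 and Atp6ap2 from -0.055 to 0.10, negative only without KO replicate 2; the cause was not tested. The count of 5 called genes over all genes was 3 with a mean FPKM of at least 5 (fewer genes tested) and 57 with array weights. It was 3 without WT replicate 1 or WT replicate 3, 20 without KO replicate 2 and 23 without KO replicate 3, a range of 3 to 23 over the mice left out. No paired analysis was possible because replicate numbers only name different mice, and no label links a KO mouse with a WT mouse. Depth limits Mas1 and Agtr1b, with 114 and 2 reads over the 8 libraries.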

Other observations

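Ratios of paired members, given per mouse as values without a test, combine the genes described above. Agtr1a to Mas1 was 41.5 to 213 in WT and 58.1 to 66.5 in KO. Agt to Ren1 was 0.307 to 0.676 in WT and 0.438 to 0.560 in KO. Enpep to Mme was 1.32 to 2.16 in WT and 1.77 to 2.23 in KO.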
